A study of Mus musculus with 8 samples.

Results

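The subject is 9 genes of the mouse cytotoxic granule: perforin (Prf1), serglycin (Srgn), the cathepsins Ctsc and Ctsw, the granule membrane protein Lamp1, and the serpins Serpinb9, Serpinb9b, Serpinb6a and Serpinb6b. They were taken by symbol from the 27179 genes of the deposited count table; the choice was made with earlier results of these data known. All 9 were found, and all 9 were among the 13184 genes with enough counts to be tested. RNA was sequenced from NK cells of C57BL/6 mice in 8 libraries, 2 in each of 4 groups: CIS-/- (called CIS-null here) in vitro, wild-type in vitro, CIS-null ex vivo and wild-type ex vivo. In every group the cells came from spleen, bone marrow and blood and had been purified with microbeads against CD49b. CIS, the product of Cish, is an inhibitor of cytokine signalling. The labels do not say how the CIS-null allele was made, how the in vitro cells were cultured or for how long, whether organs of several mice were pooled, or whether the replicates came from separate mice. The p-values therefore reflect only how far these libraries differ from each other, and that spread may be technical.

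NK cells are lymphocytes that kill infected and transformed cells by releasing secretory lysosomes, the cytotoxic granules, onto them. Perforin opens the target cell's membrane to granzymes, serine proteases that are stored in the granule on the chondroitin sulphate chains of serglycin after their propeptides have been trimmed by cathepsin C. Serpins of clade B stay in the cytosol and nucleus of the killer cell, where they trap proteases by a covalent suicide mechanism, and Serpinb9 is the one known for trapping granzyme B.

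Library totals lay between 21.5 and 28.1 M counts (M standing for mega), of which the 9 genes took between 0.506% and 0.713%. Cish itself was lower in CIS-null cells, at 21.2 and 17.2 CPM against 219.8 and 201.9 CPM in wild-type cells in vitro, and at 1.29 and 2.64 CPM against 9.26 and 9.12 CPM in wild-type cells ex vivo. CPM are counts per M after scaling by the trimmed mean of M values. All 10 NK cell markers checked were detected in every library, with sums of 8837 to 9518 CPM in vitro and 14910 to 16390 CPM ex vivo. Libraries differed in sex-linked transcripts. The X-linked RNA Xist was at 130.7 and 89.7 CPM in CIS-null in vitro libraries and at 119.6 and 162.1 CPM in wild-type ex vivo libraries, against at most 0.322 CPM in the other 4. The Y-linked gene Eif2s3y was at 0.0386 and 0 CPM in CIS-null and 135.2 and 122 CPM in wild-type libraries in vitro, and at 84.9 and 70.4 CPM in CIS-null and 34.1 and 21.7 CPM in wild-type libraries ex vivo, so transcripts of both sexes were present in wild-type cells ex vivo. Genotype within either state therefore cannot be told apart from the sex of the mice. Nor can culture within either genotype, or the difference between the states. Changes given below as on culture are in vitro over ex vivo and carry this limit. In the average of the genotype differences of both states, these transcripts stand once on each side but by unequal amounts, so the average is not free of sex either.

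Across genotypes in vitro, 6 of the 9 genes rose in CIS-null cells and 0 fell by edgeR's quasi-likelihood test at an adjusted p under 0.05, where 25.6% of all tested genes passed, 11% as higher and 14.6% as lower. The 6 were Prf1, Srgn and all 4 serpins. Their log2 fold changes, CIS-null over wild-type, were between 0.54 and 2.21, and the median over the 9 genes was 0.62 against 0 over all tested genes. Libraries of the 2 genotypes did not overlap for any of the 9 genes in vitro, which was also so for 68.8% of all tested genes. Ex vivo 0 of the 9 passed, against 0.0607% of all genes, which is 8 genes. The 9 fold changes ex vivo were between 0.01 and 0.27 on the log2 scale, with a median of 0.10 against 0.02 for all genes. CIS-null libraries stood above all wild-type libraries ex vivo for 4 of the 9 (Srgn, Ctsc, Lamp1 and Serpinb9), where 40.3% of all genes did not overlap. At an unadjusted p under 0.05, 2 of the 9 (Srgn and Lamp1) and 6.4% of all genes passed ex vivo. The ex vivo comparison also gave 0 calls among the 9 by DESeq2 and limma-voom. The 6 calls in vitro became 3 without CIS-null in vitro replicate 2 and 2 without wild-type in vitro replicate 2.

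**Figure D1:**
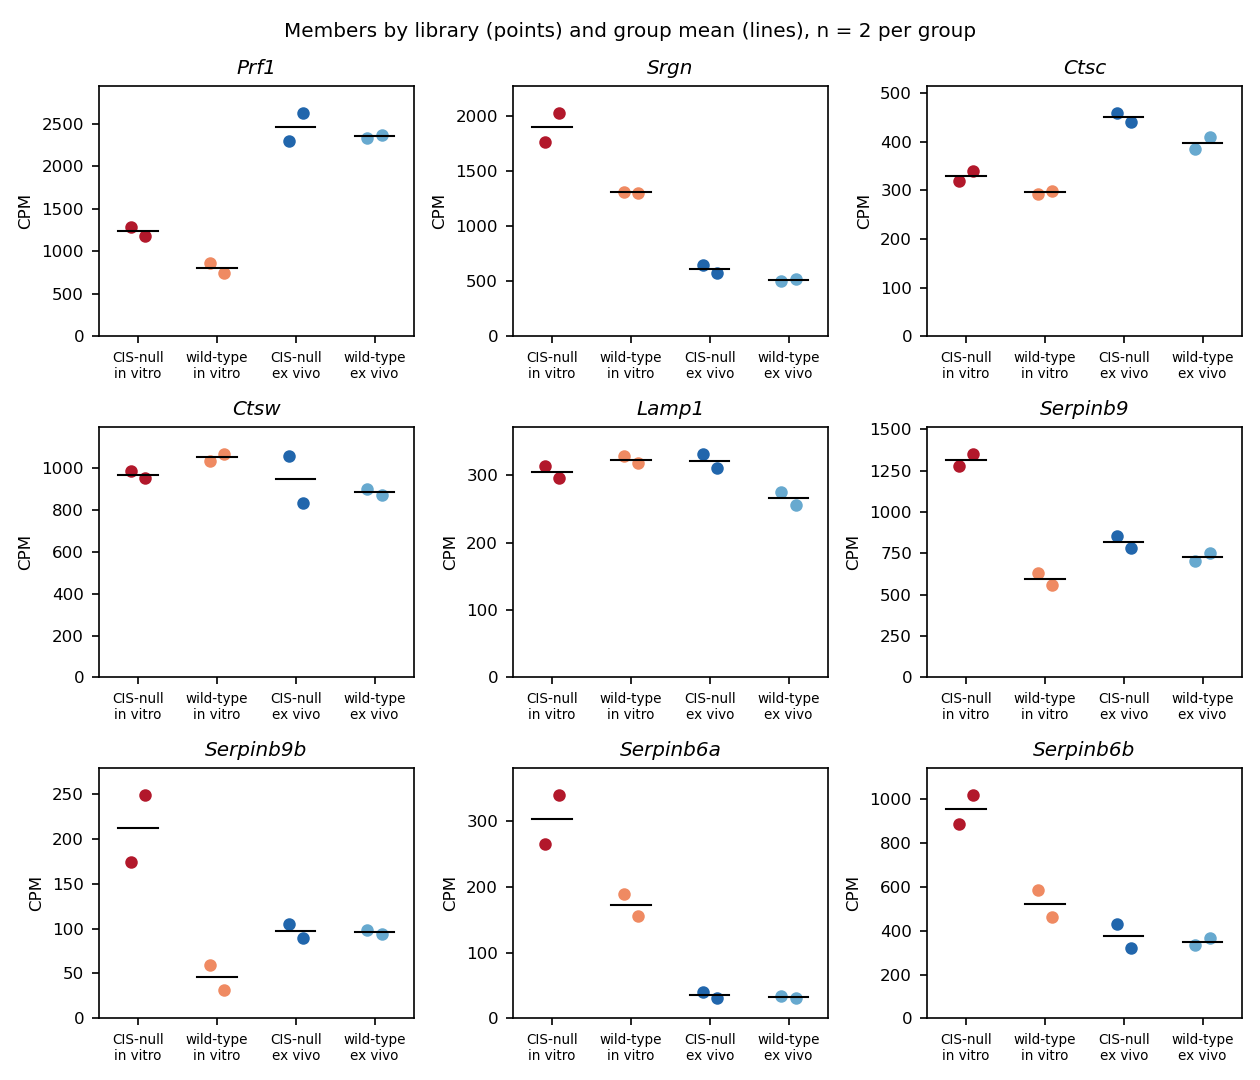
Level of each gene in CPM (vertical axes, each starting at 0) in the 4 groups; points are single libraries and lines are means of 2. In vitro the CIS-null points of Prf1, Srgn and the 4 serpins stand above the wild-type points, as for Serpinb9 at 1277 and 1351 CPM against 632 and 561 CPM, while ex vivo the groups lie close together.

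The genotype difference was then averaged over both states, the comparison in which the sex-linked transcripts are opposed without cancelling. The same 6 genes rose there and 0 fell, against 15.2% of all genes in either direction and 6.05% as higher. The average contains the in vitro difference and uses its libraries, and the ex vivo differences were small (log2 0.01 to 0.27). The return of the same 6 genes is therefore not separate from the in vitro result. The averages ran from 0.34 for Prf1 (SE 0.0806, edgeR adjusted p = 0.0296) to 1.11 for Serpinb9b (SE 0.192, edgeR adjusted p = 0.0145) on the log2 scale. Serpinb9 had the lowest adjusted p of the 9 at 0.00704, with an average of 0.65 (SE 0.0740). The averaged calls depended on the wild-type ex vivo libraries: without either of them 0 of the 9 passed. Scaling by library totals left 4, without Prf1 (adjusted p = 0.0633) and Serpinb6a (0.0637). Without CIS-null in vitro replicate 2 there was 1 call, and 2 were left without either wild-type in vitro library.

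Whether the genotype difference itself differed between the states was tested as an interaction, and 0 of the 9 genes passed by edgeR, against 0.137% of all genes (18 genes). At an unadjusted p under 0.05, 6 of the 9 and 19.6% of all genes passed. DESeq2 called 5 of the 9 (Prf1 and the 4 serpins) and 592 genes in all. Serpinb9 (edgeR adjusted p = 0.0597) and Serpinb9b (edgeR adjusted p = 0.0774) lay nearest to the threshold. Both passed without CIS-null ex vivo replicate 1 (0.0283 and 0.0412) or CIS-null in vitro replicate 1 (0.0433 and 0.0446), and Serpinb9b alone without wild-type in vitro replicate 1 (0.00913). The genotype differences of both states stand side by side in the plot of genotype fold changes.

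**Figure D2:**
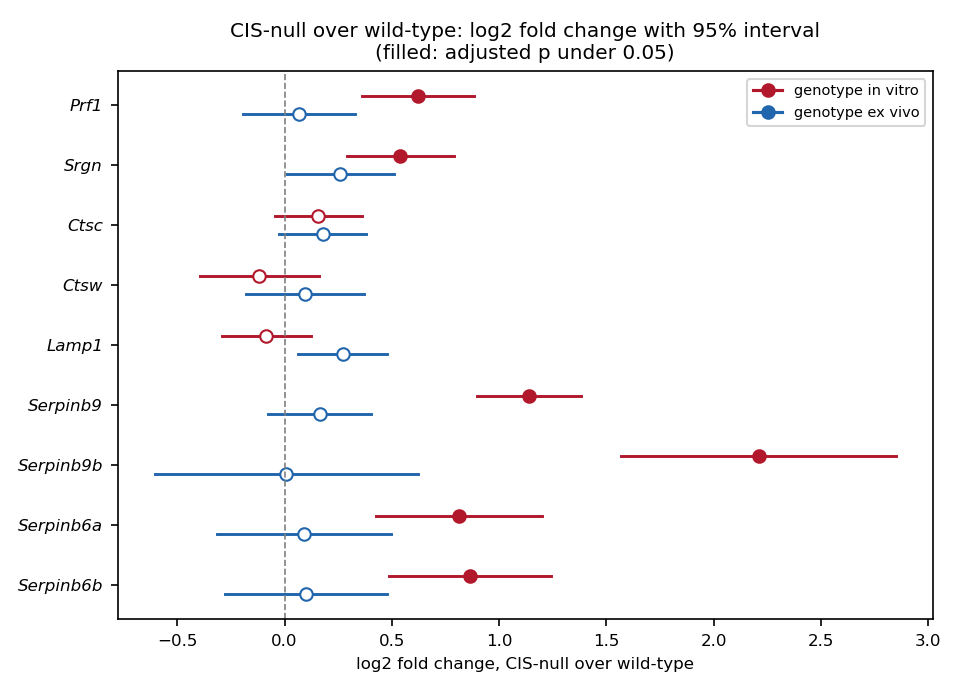
Log2 fold change of each gene, CIS-null over wild-type (horizontal axis), in vitro (red) and ex vivo (blue), with 95% intervals from edgeR's fit; filled points had an adjusted p under 0.05. The 6 filled points are all in vitro, the farthest to the right being Serpinb9b at 2.21, whereas the 9 ex vivo points lie between 0.01 and 0.27.

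Genes used as cell type markers moved beside the in vitro genotype difference. Of 10 T cell markers 5 rose and 0 fell in CIS-null cells, where 11% of all tested genes rose and 14.6% fell. The sum of the 10 was 932.9 to 934 CPM in CIS-null in vitro libraries against 227.6 to 260.6 CPM in wild-type in vitro libraries. The 5 were Cd3g (496 and 450 CPM in CIS-null against 130 and 147 CPM in wild-type libraries), Cd3d (241 and 272 against 28.1 and 10.4 CPM), Cd3e (86.6 and 68.8 against 9.87 and 3.51 CPM), Cd8a (9.02 and 6.21 against 1.56 and 0.141 CPM) and Cd5 (27 and 25 counts against 4 and 0 counts). Cd4 was at 0 and 1 counts in CIS-null and at 3 and 2 counts in wild-type libraries. It did not pass, and neither did Cd8b1, Cd6, Cd28 and Trat1. Of the 10 NK cell markers 0 rose and 2 fell: Itga2, which encodes CD49b, the purification marker (10.02 and 7.13 CPM in CIS-null against 21.2 and 18.2 CPM in wild-type libraries, edgeR adjusted p = 0.00409), and the transcription factor gene Eomes (124.5 and 109.5 against 183.2 and 165.6 CPM, edgeR adjusted p = 0.00959). The T cell sums ex vivo were 139.1 to 223.7 CPM in CIS-null and 185 to 208.5 CPM in wild-type libraries. B cell, neutrophil, and platelet and erythroid markers summed to at most 2.52 CPM in any in vitro library. The dendritic cell list summed to 74.89 to 76.05 CPM in CIS-null and 47.83 to 68.18 CPM in wild-type libraries in vitro. Of its 4 tested markers 0 rose and 0 fell there. The basophil and mast cell list summed to 435.6 to 471.5 CPM in CIS-null and 775.3 to 989.5 CPM in wild-type libraries in vitro, with Fcer1a and Ms4a2 at 0. Of its 8 tested markers 1 rose and 1 fell with the loss of CIS in vitro, with a median log2 fold change of 0. The monocyte and macrophage list summed to 1150 to 1407 CPM in CIS-null and 1676 to 1752 CPM in wild-type libraries in vitro. Although that sum was lower in CIS-null cells, 1 of its 9 tested markers rose and 0 fell, with a median of 0.13. The part of these markers in the differences of the 9 genes was not tested. In such bulk libraries fewer cells of a type and less RNA per cell cannot be told apart.

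Prf1, on chromosome 10 from 61297751 to 61304684 (GRCm38), encodes perforin, the pore-forming protein without which granzymes do not reach their targets. It held 1290.3 and 1181 CPM in CIS-null in vitro libraries, 857 and 749 CPM in wild-type in vitro libraries, 2300.45 and 2631 CPM in CIS-null ex vivo libraries and 2332 and 2374 CPM in wild-type ex vivo libraries. The ex vivo groups overlapped and stood highest, CIS-null cells in vitro were next, and wild-type cells in vitro were lowest. Prf1 rose 1.54-fold with the loss of CIS in vitro (log2 0.62, SE 0.114, edgeR adjusted p = 0.0093). It fell on culture in both genotypes, by 1.00 on the log2 scale in CIS-null cells (SE 0.115, edgeR adjusted p = 8.07e-05) and by 1.55 in wild-type cells (SE 0.117, edgeR adjusted p = 1.2e-05). The genotype call in vitro was lost without wild-type in vitro replicate 2 (adjusted p = 0.0627) and by limma on the deposited log2 RPKM (0.0788). Over all 18 alternatives the log2 fold change stayed between 0.38 and 0.76 and the adjusted p between 2.27e-06 and 0.0788.

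Srgn, on chromosome 10 from 62493833 to 62527445, encodes serglycin, the proteoglycan core of the granule matrix. It held 1767 and 2029 CPM in CIS-null in vitro libraries, 1309 and 1305 CPM in wild-type in vitro libraries, 652 and 574 CPM in CIS-null ex vivo libraries and 501 and 524 CPM in wild-type ex vivo libraries. All 4 groups stood apart, in that order. Per length it was the most abundant of the 9 in vitro, at 1884 and 2164 RPKM in CIS-null cells and 1395 and 1391 RPKM in wild-type cells, whereas Prf1 stood first ex vivo. RPKM here are CPM divided by the deposited gene length in kilobases. Srgn rose 1.45-fold with the loss of CIS in vitro (log2 0.54, SE 0.109, edgeR adjusted p = 0.0118). On culture it rose 3.10-fold in CIS-null cells and 2.55-fold in wild-type cells (edgeR adjusted p = 5.05e-06 and 1.89e-05), while Prf1 fell. Its genotype call in vitro was the least stable of the 6. It was lost without CIS-null in vitro replicate 2 (adjusted p = 0.0728) or either wild-type in vitro library (0.0598 and 0.067), by limma on log2 RPKM (log2 fold change 0.31, adjusted p = 0.123) and after removal of each library's trend with gene length (0.24, adjusted p = 0.0605). Srgn is the shortest of the 9 genes, at 938 bases. Across all tested genes the log2 fold change in vitro fell with gene length (Spearman correlation -0.461 over 13184 genes).

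The proteases and the membrane protein did not pass in either genotype comparison. Ctsc encodes cathepsin C, the dipeptidyl peptidase that removes the propeptide from granzymes. It held 319 and 339.9 CPM in CIS-null in vitro libraries, 292 and 299 CPM in wild-type in vitro libraries, 459 and 441 CPM in CIS-null ex vivo libraries and 385 and 410.0 CPM in wild-type ex vivo libraries. CIS-null libraries were above wild-type ones in both states by similar amounts, log2 0.16 in vitro (95% interval -0.05 to 0.36, edgeR adjusted p = 0.223) and 0.18 ex vivo (-0.02 to 0.38, edgeR adjusted p = 0.766). Ctsc fell on culture by 0.45 on the log2 scale in CIS-null cells and by 0.43 in wild-type cells (edgeR adjusted p = 0.00177 and 0.00303), calls kept in all 18 alternatives of each.

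Ctsw encodes cathepsin W, a cysteine protease found mainly in NK cells and cytotoxic T cells. It held 988 and 953 CPM in CIS-null in vitro libraries, 1035 and 1069.8 CPM in wild-type in vitro libraries, 1061 and 835 CPM in CIS-null ex vivo libraries and 901 and 874 CPM in wild-type ex vivo libraries. CIS-null libraries were below wild-type libraries in vitro, with a log2 fold change of -0.12 (95% interval -0.39 to 0.16, edgeR adjusted p = 0.506), and the ex vivo groups overlapped. After removal of the length trend Ctsw passed as lower in vitro (-0.34, adjusted p = 0.0352). Over the 18 alternatives its adjusted p in vitro was between 0.0352 and 0.773. On culture Ctsw did not pass in CIS-null cells (log2 0.03, SE 0.121) or in wild-type cells (0.25, SE 0.121, edgeR adjusted p = 0.105). In wild-type cells it passed as higher without CIS-null ex vivo replicate 1 (0.0284) or 2 (0.0275) and with the compared libraries alone (0.00614), in a range of 0.00614 to 0.589.

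Lamp1, also known as CD107a, is the lysosomal membrane glycoprotein that appears on the surface of NK cells when granules fuse with it. It held 313 and 296 CPM in CIS-null in vitro libraries, 328 and 318 CPM in wild-type in vitro libraries, 332 and 310.0 CPM in CIS-null ex vivo libraries and 276 and 256 CPM in wild-type ex vivo libraries. Wild-type ex vivo libraries were the lowest, and CIS-null libraries of either state overlapped. The genotype difference was -0.09 on the log2 scale in vitro (95% interval -0.29 to 0.12, edgeR adjusted p = 0.519) and 0.27 ex vivo (0.06 to 0.48, unadjusted p = 0.0162 and edgeR adjusted p = 0.714). In wild-type cells Lamp1 rose by 0.28 on culture (SE 0.0908, edgeR adjusted p = 0.0238). That call was lost without any 1 of the 4 wild-type libraries (adjusted p between 0.0662 and 0.176) and without the low-count filter (0.0523), in a range of 0.005 to 0.176.

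The 4 serpin genes all lie on chromosome 13. Serpinb6b (32956811 to 32979067), Serpinb9 (32997061 to 33017955) and Serpinb9b (33027414 to 33040588) are neighbours in that order, and Serpinb6a (33917918 to 34002794) lies farther along (GRCm38). The 250 bases upstream of the RefSeq start of Serpinb9 and Serpinb9b are shown because these paralogs had the largest genotype differences of the 9 and because these bases are alike. The RefSeq start used for Serpinb9 lies inside the interval given above for the gene, so its window may be intronic to a longer transcript. In the best local alignment, 117 of 166 columns (70.5%) were identical; among all 43 pairs of windows compared for the 9 genes no other alignment was longer than 43 columns. Capitals mark runs of at least 12 bases that both windows hold, 25 bases in each.
Serpinb9, chr13:33004291-33004540, plus strand, GRCm38.p6: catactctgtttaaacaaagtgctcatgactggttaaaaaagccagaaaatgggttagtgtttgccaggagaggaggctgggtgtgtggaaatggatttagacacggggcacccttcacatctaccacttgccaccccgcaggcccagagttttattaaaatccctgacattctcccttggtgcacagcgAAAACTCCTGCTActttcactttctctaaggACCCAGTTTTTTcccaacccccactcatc
Serpinb9b, chr13:33027164-33027413, plus strand, GRCm38.p6: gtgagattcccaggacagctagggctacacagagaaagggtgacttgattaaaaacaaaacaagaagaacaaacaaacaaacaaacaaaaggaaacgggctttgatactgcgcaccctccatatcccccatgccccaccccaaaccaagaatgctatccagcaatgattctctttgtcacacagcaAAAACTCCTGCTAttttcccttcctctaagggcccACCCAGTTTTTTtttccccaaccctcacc

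The upstream windows of 8 of the 9 genes, from RefSeq on GRCm38.p6, were searched on both strands for 4 motifs: STAT (TTCNNNGAA, in 7.02% of 32851 windows of the same length), AP-1 (TGANTCA, 6.75%), T-box (AGGTGT, 11.8%) and ETS (CCGGAAG, 6.91%). CIS is known as an inhibitor of signalling through STAT factors, so the windows with the STAT letters are shown. They belong to Serpinb6a, which rose in vitro in CIS-null cells, and to Ctsc, which did not pass. The STAT letters overlapped no other of the 4 motifs. Capitals mark the STAT letters and, nearer to the start of Serpinb6a, the ETS letters read on the other strand.
Serpinb6a, chr13:34002795-34003044, minus strand, GRCm38.p6: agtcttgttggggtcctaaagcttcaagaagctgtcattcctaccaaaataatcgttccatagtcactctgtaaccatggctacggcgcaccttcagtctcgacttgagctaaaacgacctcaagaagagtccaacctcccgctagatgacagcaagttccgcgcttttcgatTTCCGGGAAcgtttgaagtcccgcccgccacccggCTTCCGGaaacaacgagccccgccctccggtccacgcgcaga
Ctsc, chr7:88277835-88278084, plus strand, GRCm38.p6: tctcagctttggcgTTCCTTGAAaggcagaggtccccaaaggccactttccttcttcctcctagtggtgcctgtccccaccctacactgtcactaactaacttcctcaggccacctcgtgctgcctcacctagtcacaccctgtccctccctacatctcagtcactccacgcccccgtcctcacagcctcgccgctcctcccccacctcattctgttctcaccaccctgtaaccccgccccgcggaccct
The Prf1 window held the T-box letters and a Srgn window the ETS letters. The windows of Serpinb9, Serpinb9b, Serpinb6b and Lamp1 held none of the 4 motifs. Nor did the further windows of Srgn and Serpinb6a. As for Serpinb9, the Serpinb6b window and these further windows lie inside the interval of their gene. Those of Ctsc and Prf1 run partly into it.

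Serpinb9 encodes the inhibitor of granzyme B that is known for protecting killer lymphocytes from their own protease. It held 1277 and 1351 CPM in CIS-null in vitro libraries, 632 and 561 CPM in wild-type in vitro libraries, 855 and 779 CPM in CIS-null ex vivo libraries and 706 and 753 CPM in wild-type ex vivo libraries. CIS-null cells in vitro stood highest and wild-type cells in vitro lowest, with the ex vivo groups between them. The ex vivo genotypes did not overlap, but their difference did not pass (log2 0.16, SE 0.104, edgeR adjusted p = 0.776). Serpinb9 rose 2.20-fold with the loss of CIS in vitro (log2 1.14, SE 0.106, 95% interval 0.90 to 1.38, edgeR adjusted p = 0.002), and ranked 19 by p among all tested genes. The call was kept in all 18 alternatives, with adjusted p of at most 0.0257. The change on culture ran in opposite directions in the 2 genotypes: Serpinb9 rose 1.61-fold in CIS-null cells (edgeR adjusted p = 0.00041) and fell to 0.818 of the ex vivo level in wild-type cells (edgeR adjusted p = 0.0372). The fall in wild-type cells no longer passed when wild-type ex vivo replicate 1 (adjusted p = 0.094) or 2 (0.208) was left out, without wild-type in vitro replicate 2 (0.234) and after removal of the length trend (log2 fold change -0.13, adjusted p = 0.301), in a range of 0.00806 to 0.301 over its 18 alternatives.

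Serpinb9b, whose product is known to inhibit granzyme M in the mouse, followed the same order of groups more widely. It held 175 and 249 CPM in CIS-null in vitro libraries, 59.9 and 31.8 CPM in wild-type in vitro libraries, 105 and 89.0 CPM in CIS-null ex vivo libraries and 98.1 and 94.5 CPM in wild-type ex vivo libraries. In vitro the genotypes stood far apart although replicates of each differed, and ex vivo they overlapped. The rise with loss of CIS in vitro was 4.62-fold (log2 2.21, SE 0.28, 95% interval 1.57 to 2.85, edgeR adjusted p = 0.00381), the widest of the 9 genes. It was kept in all 18 alternatives, with log2 fold changes of 1.82 to 2.78 and adjusted p of at most 0.0358. On culture Serpinb9b rose 2.19-fold in CIS-null cells (edgeR adjusted p = 0.00497) and fell to 0.476 of the ex vivo level in wild-type cells (edgeR adjusted p = 0.0085). Both culture calls were kept in all 18 alternatives of each. The fall in wild-type cells was -0.68 on the log2 scale without wild-type in vitro replicate 2 and -1.63 without wild-type in vitro replicate 1, which was the higher of the pair. The protease paired with it by that background, granzyme M (Gzmm), was at 2.54 and 2.56 CPM in CIS-null in vitro libraries and at 2.54 and 1.62 CPM in wild-type in vitro libraries.

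Serpinb6a encodes an inhibitor of trypsin-like proteases and of cathepsin G. It was the gene of the 9 that moved most on culture. It held 266 and 339.7 CPM in CIS-null in vitro libraries, 189 and 155 CPM in wild-type in vitro libraries, 40.1 and 30.3 CPM in CIS-null ex vivo libraries and 34.6 and 31.3 CPM in wild-type ex vivo libraries. The ex vivo groups overlapped and both in vitro groups stood clear of them. Serpinb6a rose 8.61-fold on culture in CIS-null cells (log2 3.11, SE 0.185, edgeR adjusted p = 2.44e-06) and 5.22-fold in wild-type cells (log2 2.38, SE 0.181, edgeR adjusted p = 1.26e-05). With the loss of CIS it rose 1.76-fold in vitro (log2 0.81, SE 0.17, edgeR adjusted p = 0.0127). The genotype call was lost without CIS-null in vitro replicate 2 (adjusted p = 0.0979) or wild-type in vitro replicate 2 (0.0859).

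Serpinb6b, the inhibitor of granzyme A in the mouse, held 888 and 1021 CPM in CIS-null in vitro libraries, 584 and 464 CPM in wild-type in vitro libraries, 430.3 and 321 CPM in CIS-null ex vivo libraries and 336 and 365 CPM in wild-type ex vivo libraries. The order was that of Serpinb6a, with overlapping groups ex vivo. It rose 1.82-fold with the loss of CIS in vitro (log2 0.86, SE 0.166, edgeR adjusted p = 0.01). On culture it rose 2.54-fold in CIS-null cells and 1.50-fold in wild-type cells (edgeR adjusted p = 0.000125 and 0.0141). The genotype call was lost without CIS-null in vitro replicate 2 (adjusted p = 0.078) or wild-type in vitro replicate 2 (0.0664). The culture call in wild-type cells did not stand when wild-type ex vivo replicate 1 (0.0934) or 2 (0.0527) or wild-type in vitro replicate 1 (0.129) was left out.

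**Figure D3:**
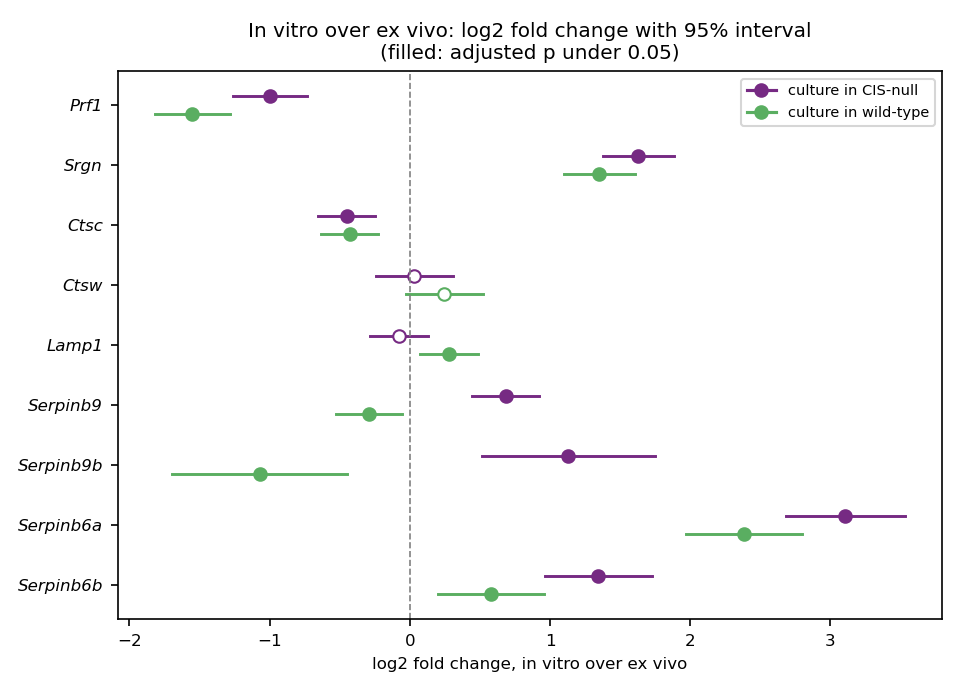
Log2 fold change of each gene on culture, in vitro over ex vivo (horizontal axis), in CIS-null (purple) and wild-type cells (green), with 95% intervals from edgeR's fit; filled points had an adjusted p under 0.05. The points of Serpinb9 (0.69 in CIS-null and -0.29 in wild-type cells) and of Serpinb9b (1.13 and -1.07) stand on opposite sides of 0, while those of Prf1 and Ctsc are below 0 and those of Srgn, Serpinb6a and Serpinb6b above 0 in both.

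In all, most of these genes differed between in vitro and ex vivo cells, as did most genes. In CIS-null cells 7 of the 9 passed (5 higher, 2 lower), where 72.4% of all tested genes passed (34.8% higher, 37.5% lower). In wild-type cells 8 of the 9 passed (4 higher, 4 lower), where 63.7% passed (32.1% higher, 31.6% lower). These counts are near the background. In wild-type cells 5 passed without either ex vivo library. The culture and genotype comparisons share libraries and are not independent of each other. Sex-linked transcripts differed between the states within each genotype, so culture cannot be told apart from sex in these calls.

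Reads that a serpin gene shares with another gene could be assigned to either. At a length of 50 bases, at most 2.92% of the sequences in the transcripts of any of the 9 genes (Serpinb6b) were also found on the same strand in transcripts of other genes, and at 100 bases none were. The counting was not stated to use strand. For Serpinb6a 24.4% of its 50-base sequences lie on the other strand of overlapping genes, among them Nqo2 (12.5%), 1110046J04Rik (8.52%) and Ripk1 (3.39%). Nqo2 held 41.4 and 49.1 CPM in CIS-null in vitro libraries, against 47.1 and 43.1 CPM in wild-type in vitro libraries. Ripk1 held 46.0 and 40.6 CPM in CIS-null in vitro libraries, against 61.3 and 58.6 CPM in wild-type in vitro libraries. Both lay lower in every in vitro library than in every ex vivo library, unlike Serpinb6a. The third partner, 1110046J04Rik, ran in the same order as Serpinb6a at a low level, with 1.35 and 1.88 CPM in CIS-null in vitro libraries, 1.01 and 0.667 CPM in wild-type in vitro libraries and at most 0.0461 CPM in any ex vivo library. For Lamp1 the share was 5.9% and for Serpinb9b 4.9%, and reads of such partners cannot be told apart from those of the gene.

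Per length, the 4 serpins together came to 1085 and 1256 RPKM in CIS-null in vitro libraries, 632 and 513 RPKM in wild-type in vitro libraries, 559 and 464 RPKM in CIS-null ex vivo libraries and 458 and 483 RPKM in wild-type ex vivo libraries. Serpinb6b and Serpinb9 made up most of the sum everywhere. Ex vivo Serpinb9 had the larger share, between 45.0% and 49.4%, and in vitro Serpinb6b did, between 43.7% and 49.8%. The share of Serpinb9b in vitro was 8.34% and 10.3% in CIS-null cells against 4.91% and 3.21% in wild-type cells. The share of Serpinb6a was 13.0% and 14.3% in CIS-null cells in vitro, below the 15.9% and 16.0% in wild-type cells.

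Gzmb, the protease that Serpinb9 traps, was 2.12-fold higher in CIS-null than in wild-type cells in vitro (log2 1.09, SE 0.115, edgeR adjusted p = 0.00297), close to the 2.20-fold of its inhibitor. The RPKM ratio of Gzmb to Serpinb9 was 45.3 and 44.3 in CIS-null in vitro libraries and 42.1 and 51.3 in wild-type in vitro libraries, so the genotypes overlapped. Ex vivo it was 2.76 and 3.09 in CIS-null libraries and 2.97 and 3.29 in wild-type libraries, which also overlapped. Both in vitro groups stood far above both ex vivo groups. With 2 libraries a group an exact two-sided permutation test cannot go below p = 0.333, so the ratios are given without a test. The ratio of Prf1 to Serpinb9 was 1.67 and 1.45 in CIS-null in vitro libraries, against 2.24 and 2.21 in wild-type in vitro libraries, without overlap. Ex vivo that ratio was higher and the genotypes overlapped, at 4.45 and 5.59 in CIS-null and 5.46 and 5.21 in wild-type libraries.

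**Figure D4:**
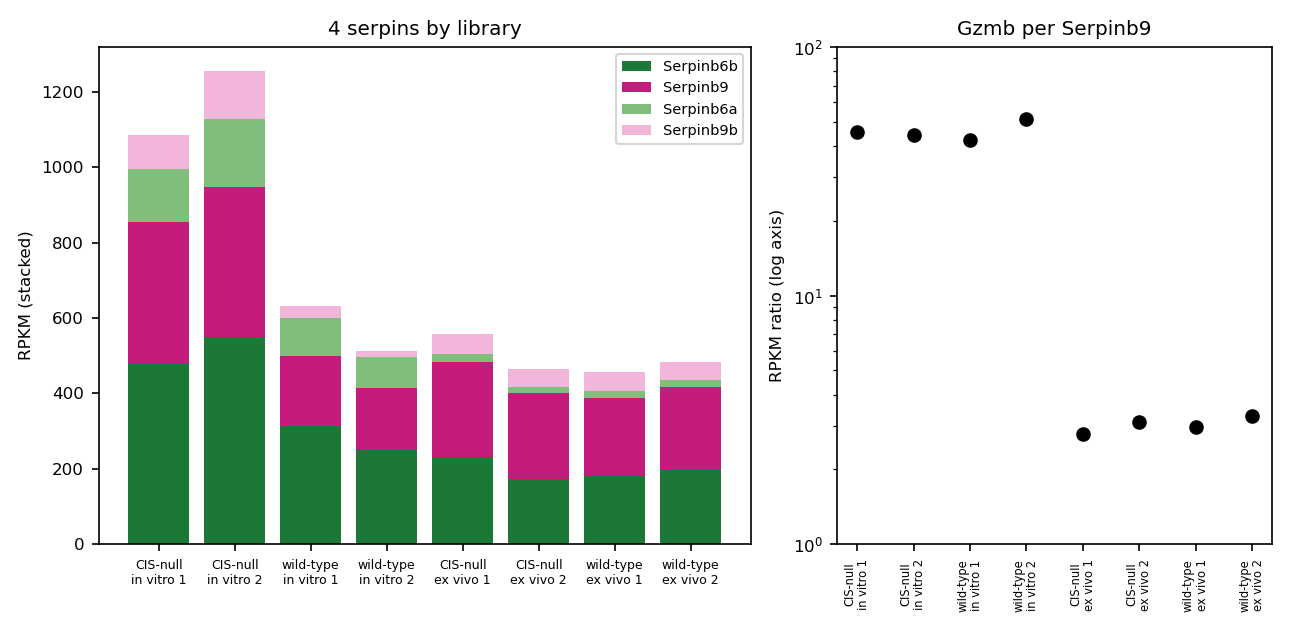
Left, stacked RPKM of the 4 serpins in each library; right, RPKM ratio of Gzmb to Serpinb9 in each library on a log axis. The stacks reach 1085 and 1256 RPKM in the CIS-null in vitro libraries and at most 632 RPKM elsewhere, while the ratio lies between 42.1 and 51.3 in vitro in both genotypes and between 2.76 and 3.29 ex vivo.

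The other genes of the pathway were counted by list, without a test of any list; over all tested genes the in vitro shares were 11% higher and 14.6% lower with the loss of CIS. Of 9 tested granzymes 7 rose and 0 fell in CIS-null cells in vitro, with a median log2 fold change of 1.09; Gzma rose 1.80-fold (edgeR adjusted p = 0.0083), and Gzme and Gzmg, which belong to the neighbouring granzymes that mouse killer cells switch on after activation, rose 5.37-fold and 6.99-fold (0.0085 and 0.00893). Gzma, the target of Serpinb6b, held 20327 and 25875 CPM in CIS-null in vitro libraries, against 13997 and 11678 CPM in wild-type in vitro libraries. Of the 14 genes for granule proteases, their inhibitor and granule sorting, 5 rose and 0 fell, with a median of 0.23. Among them were Cd63, a tetraspanin of the granule membrane (2.05-fold, edgeR adjusted p = 0.0126), Nkg7, a granule membrane protein needed for degranulation (1.50-fold, 0.0131), and Calr, the calcium-binding chaperone calreticulin that is also found in granules (1.36-fold, 0.0135). Cst7, the cystatin that inhibits cathepsin C, did not pass (log2 fold change 0.20, edgeR adjusted p = 0.216).

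Of 19 tested genes for the machinery that moves and fuses granules, 1 rose and 5 fell in vitro, with a median of -0.12 against 0 over all tested genes. Log2 fold changes in vitro fell with gene length over all tested genes (Spearman correlation -0.461). The part of gene length in the counts of this and the other lists was not tested. Lyst, the lysosomal trafficking regulator, was at 0.478 of the wild-type level (edgeR adjusted p = 0.0124), Ap3d1 and Ap3b1, subunits of the adaptor that sorts proteins to lysosome-related organelles, at 0.566 and 0.708 (0.0103 and 0.00953), and Sytl2, a Rab27 effector, at 0.614 (0.0146). The SNARE gene Vti1b rose 1.35-fold (edgeR adjusted p = 0.0197). Rab27a, the small GTPase that docks granules, had a log2 fold change of -0.04 and did not pass (edgeR adjusted p = 0.79). Of 12 tested genes for the chondroitin sulphate chains that serglycin carries, 1 rose and 2 fell with a median of -0.03, which is near the shares over all genes. Those that fell, Xylt1 and Xylt2, encode the xylosyltransferases that start the chain, and were at 0.291 (edgeR adjusted p = 0.0275) and 0.596 (0.00737) of the wild-type level. Xylt1 was scarce in vitro, with 0.0771 and 0.120 CPM for CIS-null and 0.417 and 0.281 CPM for wild-type libraries, and higher ex vivo, with 4.51 and 4.48 CPM for CIS-null and 5.47 and 5.17 CPM for wild-type libraries. Ex vivo 52 of the 56 tested genes on these lists and that of the clade B serpins had at least 10 counts in at least 2 libraries; Gzmd, Gzme and Gzmg were at 0 in all 4 ex vivo libraries, Gzmf was at 0 in all but 1, and these could not be called there. None of the other 52 passed by edgeR, where 0.0607% of all genes passed, or by DESeq2. At an unadjusted p under 0.05 by edgeR, 5 of the 52 and 6.4% of all genes passed.

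Of 27 clade B serpins looked up, 6 were tested. Besides the 4 described, these were Serpinb1a and Serpinb1b, of the clade known for inhibiting neutrophil proteases, which both rose in CIS-null cells in vitro (1.89-fold and 1.91-fold, edgeR adjusted p = 0.0103 and 0.0143). They stayed at low levels, with Serpinb1a at 22.4 and 29.6 CPM in CIS-null libraries and 14.9 and 12.6 CPM in wild-type libraries in vitro. Of the 21 others, 11 had 0 counts in all 8 libraries.

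**Figure D5:**
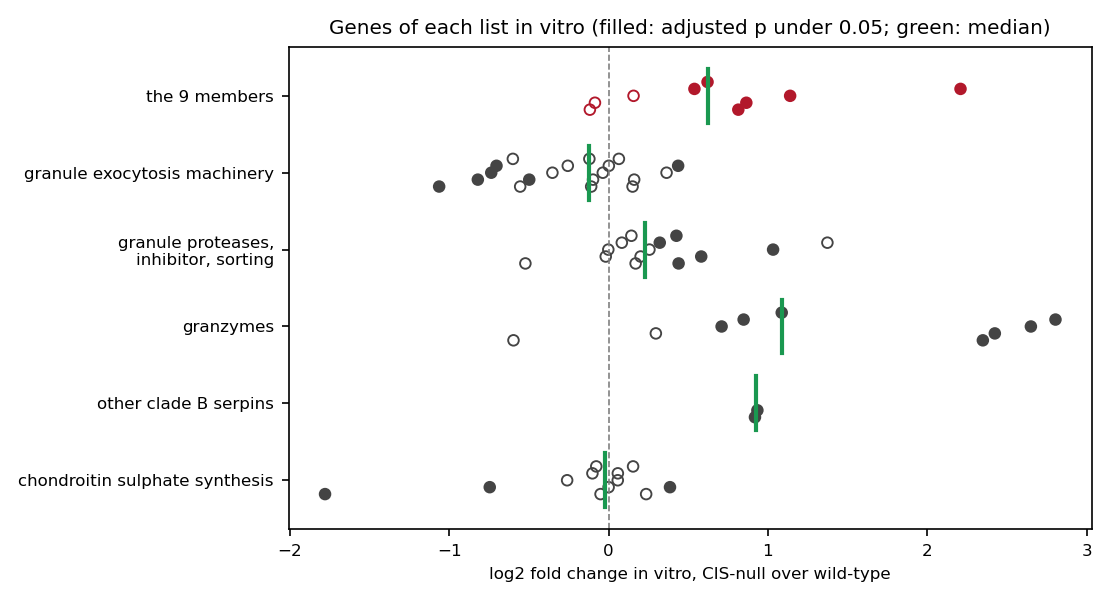
Log2 fold change in vitro, CIS-null over wild-type (horizontal axis), of every tested gene of each list; filled points had an edgeR adjusted p under 0.05 and green bars are list medians. The 9 genes (median 0.62) and the granzymes (1.09) lie mostly to the right of 0, and the exocytosis genes (-0.12) on both sides of it.

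By their course over the 8 libraries, each centred on its own mean of log2 CPM, the closest pair within the 9 was Ctsw and Lamp1 (root mean square difference 0.098 on the log2 scale), both nearly level. Srgn was closest to Serpinb6b (0.312), and Prf1 to Ctsc (0.462). Prf1 and Serpinb6a were farthest apart (2.02). Serpinb9 was nearer to Serpinb6b (0.406) than to its paralog Serpinb9b (0.466). Among the 11362 other genes with a symbol that were compared, Xkr8 lay nearest to Prf1 (0.0673), Psmg2 to Srgn (0.0681), Tusc2 to Ctsc (0.0244), Atic to Serpinb9 (0.0959), Rnf17 to Serpinb9b (0.286), Pmm1 to Serpinb6a (0.137) and Ostc to Serpinb6b (0.0977). Xkr8 held 9.21 and 9.29 CPM in CIS-null in vitro libraries, 6.54 and 6.18 CPM in wild-type in vitro libraries, 17.0 and 18.8 CPM in CIS-null ex vivo libraries and 17.6 and 17.8 CPM in wild-type ex vivo libraries. Serpinb9b thus had the least similar nearest gene. These distances describe 8 libraries of 4 groups and carry no test.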

How the data were processed

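Per the submitters' processing notes the authors used Subread, featureCounts and limma, with GRCm38/mm10 as the genome; versions and counting settings are not given in the sources used here. The deposited table holds raw read counts per gene with gene lengths. The deposited per-sample files hold the authors' log2 RPKM for 12372 genes, used here for 1 alternative only. Counts were fitted in R 4.3.3 with edgeR 4.0.16 (filterByExpr, minimum count 10 and total 15; trimmed mean of M values; quasi-likelihood F tests; 1 mean per group over all 8 libraries; residual degrees of freedom 4 and prior 4.45). There were 6 comparisons, each adjusted by Benjamini-Hochberg over 13184 genes with a threshold of 0.05. An SE is the size of a log2 fold change divided by the root of its F value, and gave the 95% intervals. The fits were also run on simulated counts with a known set of changed genes and no gene length trend between genotypes. No result above rests on that simulation.

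The 9 genes and all gene lists were chosen with earlier results of these data known. Named genes were the 9, up to 4 per list, comparison and direction by lowest p, and for each of the 9 the genes of most similar course; Rab27a, Cst7, Gzmm and the overlapping genes were named for their role. The marker Adgre1 matched no symbol. Libraries of a group varied beyond counting error, with chi-square values of 6.03 to 34.2 for each degree of freedom. Alternatives were other scalings and filters, DESeq2 1.42.0, limma-voom, limma 3.58.1 on log2 RPKM, the compared libraries alone, a replicate block, removal of each library's length trend, and leaving out each library. Upstream sequences came from RefSeq windows on GRCm38.p6, which matched 8 of the 9 genes; Ctsw was not matched.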

Additional observations from a re-analysis of the deposited data

Results flagged for a closer look

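In 3 cases the libraries of a contrast moved in opposite directions under 2 conditions. How many of all tested genes do so was not counted, so these cases are not shown to exceed a background. In either direction, libraries of the 2 genotypes did not overlap for 68.8% of all tested genes in vitro and 40.3% ex vivo. For Lamp1, CIS-null libraries lay below all wild-type libraries in vitro and above them ex vivo. The difference between the genotype effects was -0.3577 on the log2 scale and did not pass (edgeR adjusted p = 0.194). For Serpinb9, CIS-null libraries rose on culture and wild-type libraries fell, a difference of 0.9763 that did not pass by edgeR (adjusted p = 0.0597) and passed by DESeq2 (8.01e-08). For Serpinb9b the same difference was 2.2002 (edgeR adjusted p = 0.0774, DESeq2 adjusted p = 6.06e-08). Over the 17 alternatives of that test the edgeR, DESeq2 and limma adjusted p ran from 8.01e-08 to 0.332 for Serpinb9, 6.06e-08 to 0.391 for Serpinb9b and 0.105 to 0.51 for Lamp1. In each case sex-linked transcripts separate the same libraries, and genotype, culture and sex cannot be told apart in this difference.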

How the results depend on the processing

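Of the 9 genes, 6 passed in vitro, and 2 to 6 did when 1 library was left out. Serpinb9 and Serpinb9b passed there in all 18 alternatives. The genotype difference between states, with 0 genes passing, gave 2 without the low-count filter, 5 by DESeq2, 2 with the length trend removed, and 0 to 2 with 1 library left out. The average over both states, with 6 genes, gave 4 with library totals, 3 with the replicate block, 2 by limma on log2 RPKM, and 0 to 6 with 1 library left out. With 1 library left out, culture in wild-type cells (8 genes) gave 5 to 9, culture in CIS-null cells gave 7 each time, and the ex vivo genotype comparison gave 0 each time. Ctsw on culture in CIS-null cells turned to -0.3049 and passed with the length trend removed (adjusted p = 0.0184). The cause was not tested.

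The labels do not say whether replicate numbers pair the libraries. Correlations of deviations between groups ran from -0.232 to 0.146 and cannot settle this, because each rests on a single replicate difference per group. With the replicate block the average lost Prf1 (adjusted p = 0.0563), Serpinb6a (0.0627) and Serpinb6b (0.0523), and culture in wild-type cells lost Serpinb9 (0.0592); genes called fell to 990 for the average, from 2002, and to 6 for the difference between states, from 18.

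Over all genes, calls ex vivo were 8, against 23 without the filter, 45 by DESeq2, 5 with the compared libraries alone, 19 with the length trend removed and 3 to 41 without 1 library. Calls for the difference between states were 18, against 75 without the filter, 592 by DESeq2, 137 with the length trend removed, 1 by limma on log2 RPKM and 6 to 378 without 1 library. Leaving out 1 library gave 500 to 4296 calls in vitro, where the full data gave 3374, and 14 to 3587 for the average. In vitro 1445 genes were higher and 1929 lower. Library totals gave 744 and 2773 and moved the median of all genes to -0.133, with the 6 calls among the 9 genes kept. For the average the split was 797 higher and 1205 lower, 381 and 1797 with library totals, and 895 and 838 with the length trend removed. For the difference between states it was 7 and 11, and 4 and 14 with library totals (median of all genes -0.155). Library totals moved that median to -0.17 for culture in CIS-null cells. The comparison of libraries alone could not be made for the difference or the average, which need all 4 groups. Groups of 2 and the shared order of sex, genotype and T cell markers limit what these libraries can show.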
